A study of Mus musculus with 12 samples.

Results

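Spp1, which encodes the secreted protein osteopontin, and Cd44, which encodes a cell surface receptor of osteopontin, were followed through single-cell RNA sequencing of MC38 tumors. The 2 genes were taken as the rows that carry their symbols, out of 26938 gene symbols with a count, and their counts were summed by cell cluster and by tumor. MC38 is a mouse colon carcinoma line of C57BL/6J (B6) origin. Hosts were female F1 mice of a Collaborative Cross (CC) strain and B6, or B6 mice, 8 to 12 weeks old, so every host carried B6 alleles and every F1 host also carried the alleles of 1 CC strain. MC38 cells were placed under the skin, and once tumors measured 75 to 110 mm3 each host was injected into the abdomen with 200 µg of antibody, either an isotype control or one against PD-1 (aPD1). Tumors were taken 48 h later and sorted to enrich CD45+ cells. The study classed CC001 F1, CC002 F1 and CC075 F1 as responder strains and CC036 F1, CC079 F1 and CC080 F1 as non-responder strains from tumor growth in other animals, and B6 and CC007 F1 are left in no class here. There were 10 isotype and 10 aPD1 tumors of responder strains, 9 and 9 of non-responder strains, and 5 and 5 of B6 and CC007 F1.

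The 48 tumors held 53 to 3082 cells each, 93126 in all, with a median of 3333.5 unique molecular identifiers (UMIs, each marking 1 captured transcript) per cell. They were marked with hashtag antibodies and sequenced in 12 pools of 4 specimens, each holding a pair of strains under both treatments. No hashtag was used for both isotype and aPD1 tumors, and responder and non-responder tumors mostly carried different hashtags, so hashtag and treatment, and in large part hashtag and class, cannot be told apart. A total of 10176 cells (10.9%) carried a barcode that also occurs in another pool. Each tumor was 1 replicate. Nothing in the labels ties the pools to separate cohorts of animals, and 1 animal identifier stands on 2 tumors, the CC080 F1 isotype tumor of pool 3 and the CC080 F1 aPD1 tumor of pool 4.

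Osteopontin is an acidic matrix protein first known from bone that macrophages also secrete, and it binds integrins through a short motif and CD44 through other parts of the protein. CD44 is best known as the receptor of hyaluronan, the large sugar polymer of the extracellular matrix, and it is carried by most leukocytes and raised on activated and memory T cells. In tumors, macrophages with much Spp1 have been described beside hypoxic and matrix-rich regions, and the interferon-induced chemokine gene Cxcl9 is often read as their counterpart.

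The libraries capture the 5′ end of each transcript, so the start site of each gene marks the stretch that the counts come from, and the 250 bases before an annotated transcript start are shown for both genes. In RefSeq for GRCm38.p6, Spp1 spans chr5:104435111-104441053 on the plus strand (5943 bases) and Cd44 chr2:102811141-102901669 on the minus strand (90529 bases). The windows lie at chr5:104434861-104435110 for Spp1 and chr2:102901666-102901915 for Cd44, each printed along its gene's strand. The transcript start used for Cd44 lies a few bases inside the outer end of the gene's span, and RefSeq also gives Spp1 a second start downstream, whose window (chr5:104435942-104436191) is not printed. Capitals mark letters found by a search on both strands for 6 motifs that were chosen with these sequences in view.
Spp1: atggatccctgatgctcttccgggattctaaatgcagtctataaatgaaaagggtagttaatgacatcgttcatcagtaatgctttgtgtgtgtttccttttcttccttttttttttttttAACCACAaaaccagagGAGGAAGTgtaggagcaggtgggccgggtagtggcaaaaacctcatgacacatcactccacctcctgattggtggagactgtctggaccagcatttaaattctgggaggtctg
Cd44: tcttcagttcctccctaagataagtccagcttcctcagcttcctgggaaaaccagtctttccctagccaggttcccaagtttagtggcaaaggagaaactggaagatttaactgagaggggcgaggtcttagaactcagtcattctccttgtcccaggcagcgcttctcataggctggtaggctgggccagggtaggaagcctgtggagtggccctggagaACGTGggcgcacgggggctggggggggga
The Spp1 window held AACCACA, the letters of a RUNX motif, at 129 to 123 bases before the start, and GAGGAAGT, those of an ETS motif, at 113 to 106 bases. Windows of the same length before 32851 start sites held these in 4.40% and 2.44% of cases. The window of the other Spp1 start held neither of these but 3 matches to TTGNNNAA, the letters of a C/EBP motif, which 33.3% of all windows held. The Cd44 window held ACGTG, the core letters of the hypoxia response element, at 29 to 25 bases, as 16.6% of all windows did. GC content was 43.6% in the Spp1 window and 56.4% in the Cd44 window, and none of the windows held TGANTCA (AP-1) or GGGNNNTCC (NF-kB), which 6.75% and 15.2% of all windows held. A match of letters shows no binding, and the sequences are those of the B6 reference, not of the CC strains.

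Spp1 was mainly a macrophage transcript among the cells sequenced. These were sorted to enrich CD45+ cells, so shares of UMIs by cell type, here and below, are not those of whole tumors. Of 398059 Spp1 UMIs, 94.5% lay in the 10 clusters whose markers named them monocyte/macrophage-like (68059 cells, called macrophages from here on), 1.94% in the 9 T and natural killer (T/NK)-like clusters (12021 cells) and 3.53% in all others. As counts per 1000000 UMIs of the same cells (CPM), the level was 1250 in macrophages, 229 in T/NK cells and 177 in the other clusters. Clusters 2, 5 and 27, those of highest Spp1 level, held 65.0% of all Spp1 UMIs, and cluster 26, a large cluster of lower level, held 17.2%.

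Cluster 27 stood first, with a lowest, median and highest Spp1 level of 493, 2607 and 7220 CPM over the 45 tumors with at least 10 of its cells. Its leading genes, those of largest fold over the other clusters, included Gpnmb, the matrix metalloproteinase genes Mmp12 and Mmp13, the heme oxygenase gene Hmox1, the arginase gene Arg1 and the hypoxia-induced Bnip3 and Egln3. Clusters 2 (314, 1253 and 5000 CPM), 5 (307, 1085 and 5243 CPM) and 21 (57.2, 941 and 4214 CPM), the last led by interferon-induced Ifit genes, followed. Cluster 4, led by Adgre4, Ace, Chil3 and Vcan, stayed far lower, with a median of 87.8 CPM and no Spp1 UMI in its lowest tumor. It was named monocyte/macrophage by 10 of 12 markers, a list that does not part monocytes from macrophages. In the order of all 27 clusters no step between neighbours exceeded the larger SD over tumors of the pair, on log2(CPM + 1). These SDs take in all strains and treatments and reach 4.06, so this rule could miss breaks in the order.

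Within clusters Spp1 was uneven from cell to cell. After thinning each cell of at least 1000 UMIs to 1000 UMIs, 52.9% of cluster 27 cells held a Spp1 UMI (95% exact binomial interval 51.3% to 54.5%, which covers counting error only), against 68.1% before thinning. The share was 34.3% in cluster 5, 33.3% in cluster 2, 26.7% in cluster 26, whose leading genes were those of complement component C1q and Cxcl13, and 5.30% in cluster 4. Over all 63780 thinned macrophages it was 29.8%, and the 10% of cells with most Spp1 held 74.1% of the Spp1 UMIs, up to 105 in a cell. Plasmacytoid dendritic cells (cluster 18, median 3004.5 UMIs) had a share of 2.32% and migratory dendritic cells (cluster 11, median 3652 UMIs) 1.39%, against a median of 3763 UMIs in cluster 27. Higher shares were found in type 1 conventional dendritic cells (cluster 6, 4.84%, median 6575.5 UMIs) and fibroblasts (cluster 22, 5.71%, median 4199.5 UMIs). Granulocytic cluster 16 had 13.7% of 153 thinned cells. The part of free RNA in any of these shares was not tested.

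Cd44 had another order of clusters. Macrophages held 83.0% of 235967 Cd44 UMIs (650 CPM), T/NK cells 5.17% (363 CPM) and all other clusters 11.9% (352 CPM). The highest levels were in macrophage cluster 19 (567, 2203 and 9903 CPM, lowest, median and highest tumor), granulocytic cluster 16 (657, 1893 and 3282 CPM over 18 tumors) and macrophage cluster 4 (970, 1536 and 2948 CPM). The next step, from cluster 4 to cluster 2 (417, 764 and 1746 CPM), was 1.05 on the log2 scale and exceeded the larger SD of 0.52, and no other step did.

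Thus macrophage clusters 19 and 4, high in Cd44, had low median Spp1 levels of 360 and 87.8 CPM. Other macrophage clusters did not all follow. Cluster 2, with medians of 764 CPM for Cd44 and 1253 CPM for Spp1, held 31.7% of all Cd44 UMIs and 35.4% of all Spp1 UMIs. Clusters 2, 5 and 27 together held 44.4% of all Cd44 UMIs. Clusters 4 and 19 together held 15.7% of all Cd44 UMIs and 1.33% of all Spp1 UMIs. A Cd44 UMI was found in 71.3% of thinned cluster 4 cells (70.0% to 72.6%), 68.6% of cluster 16 cells (60.6% to 75.9%, 153 cells), 61.8% of cluster 19 cells and 38.8% of cluster 27 cells. Cluster 19 was shallow (median 1225 UMIs), so 1115 of its 3066 cells were left out by the thinning. In it 11 of 12 monocyte/macrophage markers reached 100 CPM, though its 10 leading genes, Lrmda and Dock4 among them, held none of them. Cd44 was spread more evenly than Spp1, with 49.9% of its macrophage UMIs in the top 10% of cells. No cluster lacked Cd44, and the lowest share was 11.8%, in unnamed cluster 25.

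**Figure D1:**
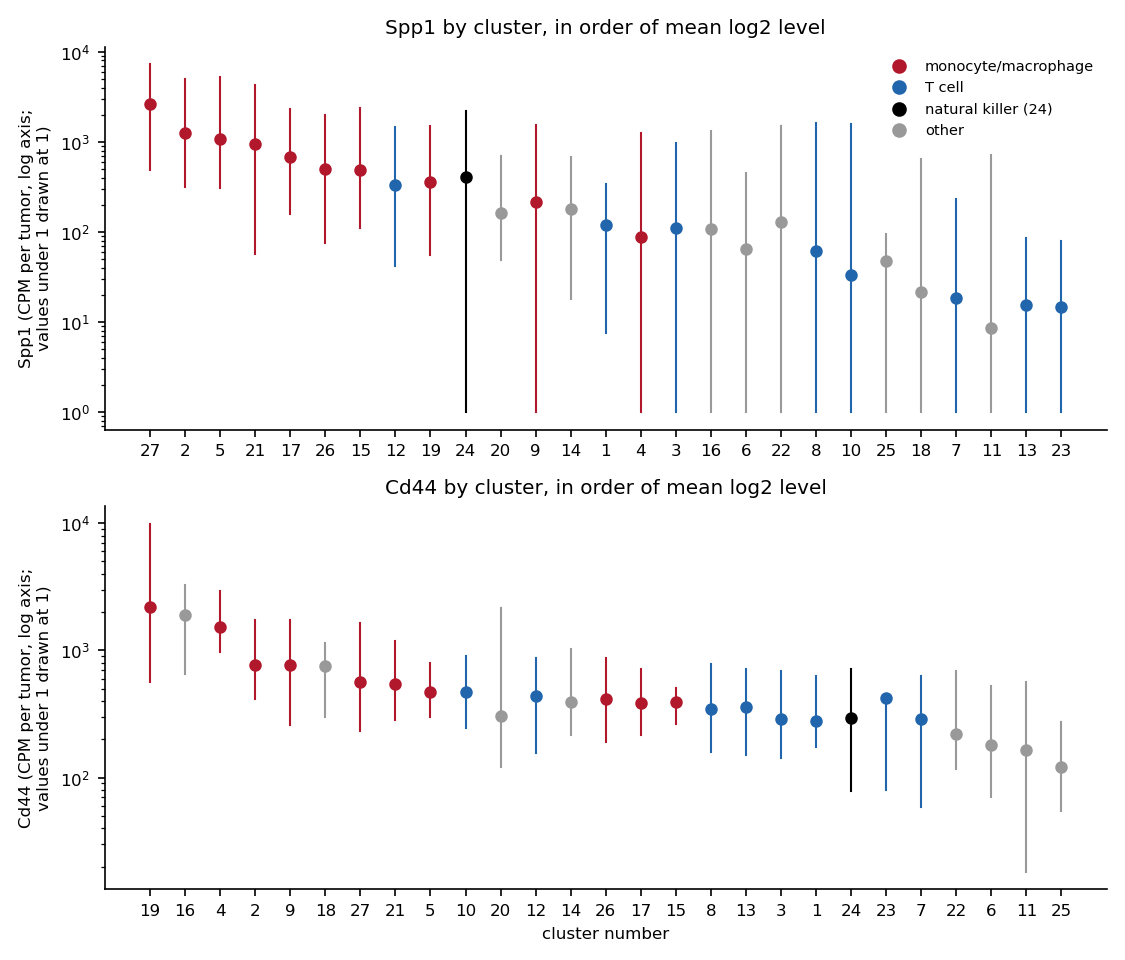
Spp1 (top) and Cd44 (bottom) in each of the 27 clusters, as CPM on a log axis. Points are medians and lines run from the lowest to the highest tumor with at least 10 cells of the cluster, and colours give the cell type named from markers. Spp1 falls from cluster 27 (median 2607 CPM), with natural killer cluster 24 among the macrophages, while clusters 19, 16 and 4 lead for Cd44.

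T cells and natural killer cells carried Cd44 at a similar level in most of their clusters. Medians over tumors ran from 279 CPM in cluster 1 to 473 CPM in cluster 10, where Cd4 was at 482 CPM, and every step between neighbours was smaller than the SD. The share of thinned T/NK cells with a Cd44 UMI was 28.3%, with 24.1% in cluster 7, where the naive T cell genes Tcf7 and Lef1 led, 27.6% in cluster 3, where Cd8a led, 30.2% in cluster 8, where Foxp3 led, and 38.7% in cluster 10. Cluster 12 had a share of 39.2%, but it also carried 11 of 12 macrophage markers.

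Outside macrophages Spp1 was highest in natural killer cluster 24 and in T cell-named cluster 12. All 8 natural killer markers reached 100 CPM in its 1614 cells, with Ncr1, the natural killer receptor gene, at 452 CPM, the T cell gene Cd3e at 19.3 CPM and the macrophage genes Apoe and Lyz2 at 35.5 and 51.7 CPM. Its Spp1 level was 608 CPM over all cells, and 0, 403 and 2171 CPM in the lowest, median and highest of 38 tumors. Cluster 12, which also carried macrophage markers, had 537 CPM over all cells, and 41.8, 336 and 1476 CPM in 18 tumors. A Spp1 UMI was found in 16.2% of its thinned cells (14.2% to 18.4%, median 1745.5 UMIs per cell) and in 17.2% of those of cluster 12 (14.0% to 20.8%), against 9.46% in CD8 cluster 3, 5.14% in cluster 8, 1.58% in cluster 7 and 1.18% in the interferon gamma-rich T cell cluster 13.

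Cluster 24 held few transcripts of other macrophage genes. Per UMI of Apoe, Lyz2, C1qa and C1qb, genes that mark macrophages, macrophages held 0.0855 Spp1 UMIs and cluster 24 held 5.03. At the macrophage ratio of the same tumors its 493 UMIs of these genes would come with 38.2 Spp1 UMIs, and 2482 were counted, 64.9 times as many, with more than at that ratio in 37 of 38 tumors. CD8 cluster 3 exceeded the macrophage ratio 29.1 times (36 of 40 tumors), cluster 1 16.6 times, cluster 8 15.7 times and cluster 10 12.7 times. T cell clusters 7 (1.76 times), 13 (2.33 times) and 12 (1.10 times) lay close to it. Outside T/NK cells, unnamed cluster 20, with 5065 Spp1 UMIs, exceeded it 3.91 times (35 of 43 tumors). Type 1 conventional dendritic cells (cluster 6) exceeded it 2.69 times (33 of 39 tumors).

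The cluster 24 cells with and without Spp1 were similar in marker content. Of 205 thinned cluster 24 cells with a Spp1 UMI, 86.3% held a UMI of a natural killer marker, as 90.2% of the 1057 cells without did, and both had 7.80% to 7.85% of cells with a Cd3 UMI. They held 0.107 UMIs of the macrophage genes per cell, against 0.140 in cells without Spp1 and 13.1 in macrophages. Before thinning they were deeper, with a median of 4266 against 2073 UMIs, and the part of this in the result was not tested. Cluster 24 also carried integrin genes whose products bind osteopontin, with Itgb1 at 560 CPM, Itga4 at 233, Itgav at 122 and Itgb3 at 75.4, and Cd44 at 311 CPM.

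**Figure D2:**
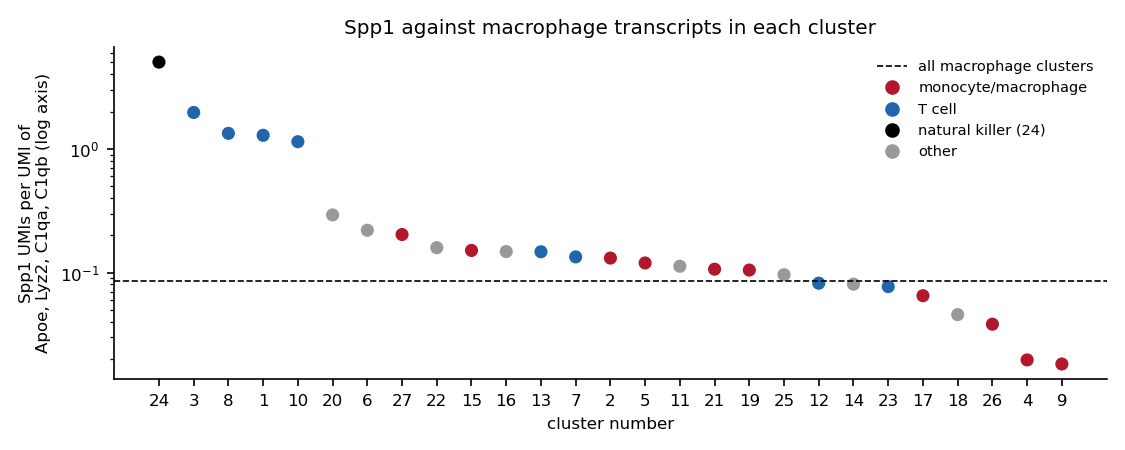
Spp1 UMIs per UMI of Apoe, Lyz2, C1qa and C1qb in each cluster, on a log axis, with a dashed line at the value of all macrophage clusters (0.0855). Cluster 24 (5.03) and T cell clusters 3, 8, 1 and 10 lie more than 10 times above the line, while T cell clusters 12, 13, 7 and 23 lie near it.

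The main question was whether macrophage Spp1 differed between tumors of responder and non-responder strains, and whether aPD1 changed it. In isotype tumors the lowest, median and highest macrophage levels were 402, 1098 and 2193 CPM for responder strains and 624, 1253 and 1796 CPM for non-responder strains. After aPD1 they were 330, 589 and 2463 CPM for responder and 567, 1474 and 3114 CPM for non-responder strains. The groups overlapped in both treatments, and after aPD1 4 of 10 responder tumors lay below every non-responder tumor and 3 of 9 non-responder tumors lay above every responder tumor.

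Responder minus non-responder, the fitted log2 difference was −0.05 ± 0.33 (SE) in isotype tumors (edgeR quasi-likelihood test, Benjamini-Hochberg adjusted p = 1.0), a contrast in which 0.278% of 11873 genes were called at an adjusted p under 0.05. In aPD1 tumors it was −1.01 ± 0.33, with an adjusted p of 0.0568, and 6.44% of genes were called. Spp1 therefore missed the call in aPD1 tumors, while with the pool as a block it passed, at −1.13 and an adjusted p of 0.0185. Each class is 3 strains, and tumors of a strain are not independent measures of class, so p-values over tumors are too small for it where strains differ. With counts summed per strain and treatment the difference was −1.08 ± 0.41 (adjusted p = 0.41). The difference rested on the strains taken, since without CC001 F1 it was −1.57 (adjusted p = 0.00378), and over all alternatives it ran from −1.57 to −0.71 with adjusted p from 0.00378 to 0.410. The median UMIs per cell were 3095.25 in the median responder and 3691 in the median non-responder aPD1 tumor, and T/NK cells made up 13.4% and 5.49% of their cells, and the part of either in the difference was not tested in this fit. Cxcl9, the chemokine gene often set against Spp1 in macrophages, differed by 1.66 ± 0.34 in the same contrast (adjusted p = 0.00199).

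Treatment itself gave no call for Spp1. In responder strains the aPD1 minus isotype change was −0.36 ± 0.32 (adjusted p = 0.866; 0% of genes were called) and in non-responder strains it was 0.60 ± 0.34 (adjusted p = 1.0; 0% called). Unadjusted, 821 and 91 of 11873 genes had p under 0.05, and DESeq2 called 2 and 0. The interaction of treatment and class was −0.96 ± 0.47 (adjusted p = 0.868; 0% called, 680 genes at an unadjusted p under 0.05 and 1 called by DESeq2). Within pairs of 1 strain and pool, Spp1 was lower with aPD1 in 8 of 10 responder pairs (median −0.77 on the log2 scale) and higher in 7 of 9 non-responder pairs (median 0.65).

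The pairs did not move alike within a class. In CC079 F1 the isotype tumors of pools 1, 2 and 5 had 1796, 1791 and 1279 CPM and the aPD1 tumors 3007, 2835 and 1815 CPM, so all 3 pairs went up, by 0.50 to 0.74 on the log2 scale. In CC080 F1 the isotype tumors of pools 3, 4 and 11 had 938, 624 and 1253 CPM and the aPD1 tumors 1474, 1453 and 1345 CPM, again higher in 3 of 3. The rise in pool 11 was only 0.10, and the pool 3 isotype and pool 4 aPD1 tumors share an animal identifier. In CC075 F1 the isotype tumors of pools 9, 10 and 11 had 513, 969 and 1045 CPM and the aPD1 tumors 464, 330 and 483 CPM, lower in 3 of 3.

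The other classed strains were mixed. CC036 F1 had isotype levels of 1316, 872 and 1134 CPM in pools 8, 9 and 10 and aPD1 levels of 1113, 567 and 3114 CPM, so its single rise in pool 10 was the largest of the non-responder pairs. CC002 F1 had isotype levels of 1150, 860 and 402 CPM in pools 3, 5 and 12 and aPD1 levels of 628, 543 and 1109 CPM. The pool 12 isotype tumor of CC002 F1 held only 248 cells, 125 of them macrophages. CC001 F1 fell in pools 1, 2 and 12 and rose in pool 4, from 1158 to 2463 CPM, the highest level of a responder tumor.

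**Figure D3:**
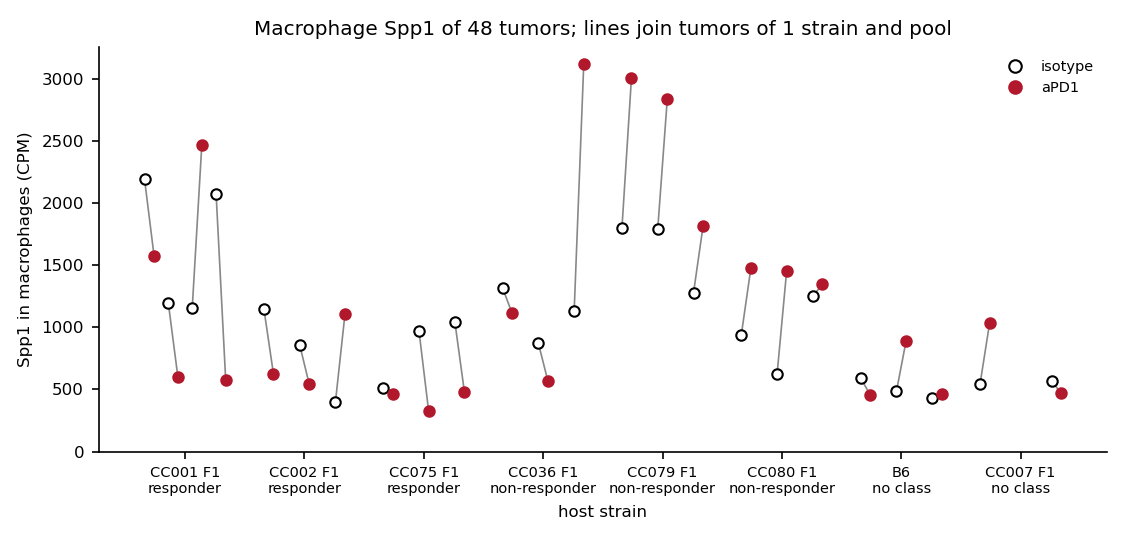
Spp1 in macrophages of each of the 48 tumors, in CPM, by host strain; open circles are isotype and filled circles aPD1 tumors, and lines join tumors of 1 strain and pool. All 3 lines of CC079 F1 and of CC080 F1 rise and all 3 of CC075 F1 fall.

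The share of macrophages with a Spp1 UMI gave the same picture at equal depth. It was 29.6 ± 7.89% (SD, n = 10) and 31.6 ± 6.94% (n = 9) in responder and non-responder isotype tumors, a difference of −1.99 percentage points (exact permutation p = 0.584, adjusted 0.767 over 25 such tests). After aPD1 it was 22.9 ± 9.56% and 41.2 ± 13.2%, a difference of −18.3 points (exact permutation p = 0.0041, adjusted 0.085). The permutations exchange tumors, not strains, and after aPD1 tumors of a strain were close in CC075 F1 (11.8% to 14.3%), CC080 F1 (37.3% to 39.3%), CC079 F1 (50.3% to 55.1%) and CC002 F1 (22.4% to 29.4%) but not in CC001 F1 (18.8% to 39.9%) or CC036 F1 (16.1% to 51.2%). The interaction was −16.3 points (exact permutation p = 0.0102, adjusted 0.085), so neither passed the correction. In responder strains 3 of 10 pairs had the higher share after aPD1, with a change of −6.73 points over all tumors (permutation p = 0.102, adjusted 0.256), which was −8.80 without tumors under 500 cells (exact permutation p = 0.0244, adjusted 0.122). In non-responder strains 7 of 9 pairs had the higher share after aPD1, by 9.61 points over all tumors (exact permutation p = 0.0717, adjusted 0.224), and exact sign flips over the pairs gave p = 0.0391 (adjusted 0.195), against 0.113 (adjusted 0.257) for the responder pairs. Thinning left out 4.39% of macrophages in non-responder aPD1 tumors to 6.13% in responder aPD1 tumors.

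Spp1 was also compared at a fixed cluster makeup, and no difference passed the correction. When the Spp1 level of each macrophage cluster was weighted by the mean makeup of all tumors, the log2 difference between responder and non-responder tumors was −1.21 after aPD1 (exact permutation p = 0.0092, adjusted 0.085) and −0.13 under isotype (exact permutation p = 0.685, adjusted 0.767). Cluster 27 made up 5.87 ± 3.56% (SD) of macrophages in responder and 5.98 ± 2.95% in non-responder aPD1 tumors, and cluster 2 32.3 ± 8.98% and 28.1 ± 6.42%. Within cluster 27 the median Spp1 level was 2120 CPM in responder isotype and 2109 CPM in responder aPD1 tumors, against 2960 and 4140 CPM in non-responder tumors. All 9 non-responder aPD1 tumors had at least 2881 CPM there, while responder aPD1 tumors ran from 493 to 3542 CPM. Responder isotype tumors ran from 929 to 7220 CPM. Despite the like medians, the mean log2 level there was 11.3 in responder isotype and 10.7 in responder aPD1 tumors. In non-responder tumors it was 11.4 and 12.0. In cluster 2, which held more Spp1 UMIs, the medians were 1630 and 693 CPM in responder isotype and aPD1 tumors and 1523 and 2154 CPM in non-responder tumors. In cluster 5 they were 1269 and 793 CPM against 1357 and 1697 CPM, and in cluster 26 667 and 412 CPM against 895 and 1165 CPM, with overlapping ranges and no test per cluster. The responder medians were not lower after aPD1 in cluster 17 (554.5 and 600.5 CPM) or cluster 19 (309.5 and 315.4 CPM).

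Spp1 in macrophages differed between the 8 host strains. In the order of mean log2 levels, CC079 F1 was highest (1279, 1806 and 3007 CPM, lowest, median and highest of 6 tumors), and CC001 F1 (median 1384), CC036 F1 (1124) and CC080 F1 (1299) followed. Below them lay CC002 F1 (744), CC007 F1 (555), CC075 F1 (498) and B6 (476), so the order did not follow class, CC001 F1 being a responder strain. An F test over strains with treatment as a term gave an adjusted p of 4.44e-05, with a range of 1.84 between the highest and lowest strain on the log2 scale, in a contrast in which 51.7% of 12510 genes were called. With the pool as a block, added after the data had been seen, the range was 2.40 and the adjusted p 0.0462. The only step between neighbouring strains larger than the SD was that from CC080 F1 to CC002 F1 (0.63 against 0.60).

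Within pools the classes could be compared directly. Of 8 pools with 1 responder and 1 non-responder strain, macrophage Spp1 was higher on average in the non-responder strain in 7, and in 5 pools the tumors of the strains did not overlap, each time with the non-responder strain higher. Each strain had 2 tumors per pool, so a lack of overlap can often arise by chance. Its share over all genes was not counted. Pool 4 was the exception, with CC001 F1 at 1158 and 2463 CPM and CC080 F1 at 624 and 1453 CPM. The strains of each class differ between pools, so these pools are not independent repeats of a single comparison.

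Cd44 in macrophages showed no class or treatment call. Its lowest, median and highest levels were 325, 514 and 792 CPM in responder isotype, 369, 654 and 1802 CPM in non-responder isotype, 296, 527 and 1153 CPM in responder aPD1 and 423, 587 and 1275 CPM in non-responder aPD1 tumors. The class difference was −0.56 ± 0.26 under isotype (adjusted p = 0.693) and −0.25 ± 0.26 after aPD1 (adjusted p = 0.627), and the latter changed sign without CC036 F1, to 0.11. With aPD1 it changed by 0.20 ± 0.25 in responder strains (adjusted p = 0.915) and by −0.10 ± 0.27 in non-responder strains (adjusted p = 1.0), and the interaction was 0.31 ± 0.37 (adjusted p = 0.934). Within the 8 pools with a strain of each class, macrophage Cd44 was higher on average in the non-responder strain in 7, and the strains did not overlap in 4, each time with the non-responder strain higher. With 2 tumors per strain and pool, a lack of overlap can often arise by chance, and its share over all genes was not counted.

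Macrophage Cd44 followed the strain and the pool together. Medians by strain ran from 1076 CPM in CC036 F1, 884 in B6, 783 in CC007 F1 and 768 in CC075 F1 to 514 in CC002 F1, 515 in CC079 F1 and 383 in CC001 F1, with no neighbours apart beyond their SD. The strain F test gave an adjusted p of 3.09e-05 and a range of 1.29, and with the pool as a block 0.593 and 0.42. Tumors of pools 1 to 5 had 296, 464 and 779 CPM and those of pools 8 to 12 had 469, 799 and 1802 CPM, and of the 3 classed strains measured in both, CC080 F1 and CC001 F1 were higher in the later pools while CC002 F1 overlapped. CC080 F1 had 369 to 779 CPM in pools 3 and 4 and 830 and 1070 CPM in pool 11, and CC001 F1 had 296 to 458 CPM in pools 1, 2 and 4 and 469 and 732 CPM in pool 12. CC002 F1 had 415 to 562 CPM in pools 3 and 5 and 528 and 575 CPM in pool 12. The median over tumors of the median UMIs per cell was 3233 in pools 1 to 5 and 3389 in pools 8 to 12. Cluster 4, high in Cd44, made up 4.56% of macrophages in the median tumor of pools 1 to 5 and 8.85% in pools 8 to 12, and its part in the result was not tested.

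**Figure D4:**
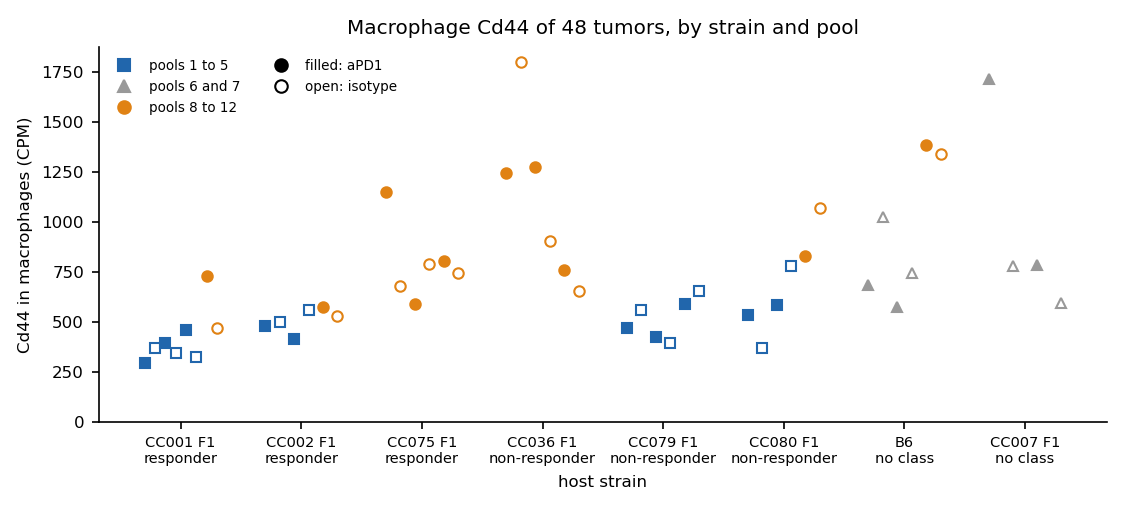
Cd44 in macrophages of each of the 48 tumors, in CPM, by host strain; squares, triangles and circles give the pools, open symbols isotype and filled symbols aPD1. Tumors of pools 1 to 5 lie at 779 CPM or below, and CC080 F1 is higher in pool 11 than in its earlier pools.

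In T/NK cells Cd44 gave no class or treatment call. Its median was 324 CPM in responder isotype, 315 in responder aPD1, 310 in non-responder isotype and 417 in non-responder aPD1 tumors, with a range over all 38 of 221 to 582 CPM. Class differences were 0.09 ± 0.15 under isotype (adjusted p = 0.964, with 0.429% of 7219 genes called) and −0.21 ± 0.15 after aPD1 (adjusted p = 0.664, 0.346% called). Changes with aPD1 were −0.09 ± 0.14 in responder strains (adjusted p = 1.0, 0% called, 215 genes at an unadjusted p under 0.05 and 0 called by DESeq2) and 0.21 ± 0.15 in non-responder strains (adjusted p = 1.0, 0.0139% called), and the interaction was −0.30 ± 0.21 (adjusted p = 1.0, 0% called, 246 genes at an unadjusted p under 0.05 and 0 called by DESeq2). The share of T/NK cells with a Cd44 UMI was 26.5% and 25.4% in responder isotype and aPD1 tumors and 25.5% and 30.5% in non-responder tumors, and the smallest of its 5 permutation p was 0.0671 (adjusted 0.224). The strain test gave an adjusted p of 0.478 for Cd44, with 23.5% of 8164 genes called.

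Spp1 in T/NK cells varied widely. Its lowest, median and highest levels were 15.7, 94.6 and 333 CPM in responder isotype, 71.9, 207 and 510 CPM in responder aPD1, 16.3, 313 and 631 CPM in non-responder isotype and 20.5, 388 and 752 CPM in non-responder aPD1 tumors. The class difference was −1.17 ± 0.50 under isotype (adjusted p = 0.459) and −0.59 ± 0.48 after aPD1 (adjusted p = 0.731), and aPD1 tumors differed from isotype tumors by 0.88 ± 0.48 for responder and 0.29 ± 0.49 for non-responder strains. No adjusted p for either, or for the interaction of 0.58 ± 0.69, was below 0.999. Leaving out CC036 F1 turned the isotype difference into a call, at −1.66 (adjusted p = 0.025). T/NK Spp1 was higher after aPD1 in 8 of 10 responder pairs (median log2 change 1.14) and in 6 of 9 non-responder pairs (median 0.57). The T cell clusters did not all follow in tumors with at least 10 of their cells. Isotype and aPD1 medians in cluster 3 were 88.7 and 273 CPM for responder and 161 and 60.1 CPM for non-responder strains. In cluster 8 they were 67.0 and 126 CPM against 78.0 and 30.6 CPM, with overlapping ranges and no test. In CC075 F1, whose macrophage Spp1 was lower in each aPD1 tumor, T/NK Spp1 was higher in each, going from 15.7 to 233, 22.6 to 71.9 and 71.9 to 158 CPM. The isotype values of CC075 F1 rest on 12, 5 and 41 Spp1 UMIs.

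By strain, T/NK Spp1 was highest in CC080 F1 (346, 442 and 631 CPM) and CC079 F1 (217, 318 and 752 CPM), apart from the next strain, CC001 F1 (median 207 CPM), by 1.02 on the log2 scale, more than the SD of 0.90. It was lowest in CC075 F1 (median 71.9) and CC036 F1 (median 64.2). The strain test gave an adjusted p of 0.000786 and a range of 2.34, and with the pool as a block 0.255 and 2.38. Of 7709 Spp1 UMIs in T/NK cells, natural killer cluster 24 held 2482, and cluster 12, which holds macrophage markers, held 1378. The strain order is therefore not that of T cells alone, and the part of cluster makeup in it was not tested. Cluster 12 reached 10 cells in 2 responder isotype tumors and in 8 responder aPD1 tumors. Over all alternatives the change with aPD1 in responder strains ran from 0.52 to 1.73. Without cluster 12 the change with aPD1 in non-responder strains went from 0.29 to −0.24.

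Within cluster 24 alone the strain pattern was wide and also tied to the pool. Over tumors with at least 10 such cells, Spp1 was 372 to 1825 CPM in CC079 F1 (4 tumors), 184 to 1490 in CC080 F1 (6), 143 to 2171 in CC007 F1 (3), 289 to 968 in CC002 F1 (6), 82.0 to 1555 in CC001 F1 (5) and 29.0 to 896 in B6 (5). CC036 F1 (57.4, 40.9 and 41.0 CPM under isotype and 187 CPM after aPD1) and CC075 F1 (0 and 93.5 CPM under isotype and 84.9, 42.0 and 210 CPM after aPD1) had the lowest mean log2 levels. Single tumors overlapped with other strains, as with the B6 tumor at 29.0 CPM and the CC001 F1 tumor at 82.0 CPM. The step from B6 to CC036 F1, 1.84 on the log2 scale, was the only one larger than the SD. CC036 F1 and CC075 F1 were measured in pools 8 to 11 only, where CC080 F1 tumors of pool 11 had 898 and 1197 CPM but the B6 tumors of pool 8 had 29.0 and 269 CPM. In pools 1 to 5 the median was 696 CPM over 15 tumors, and in pools 8 to 12 it was 93.5 CPM over 17.

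The class contrasts of cluster 24 gave no call. Median Spp1 was 262 CPM in 6 responder isotype, 328 CPM in 10 responder aPD1, 372 CPM in 9 non-responder isotype and 1197 CPM in 5 non-responder aPD1 tumors. The last group held 3 tumors of CC080 F1 (1197 to 1490 CPM), 1 of CC079 F1 (1182 CPM) and 1 of CC036 F1 (187 CPM). Under isotype each of these strains had 3. Strain makeup thus differed between the groups, and its part in these contrasts was not tested. The log2 difference between responder and non-responder tumors after aPD1 was −1.66 (exact permutation p = 0.0626, adjusted 0.224), and responder strains changed with aPD1 by 1.11 (exact permutation p = 0.475, adjusted 0.699) and non-responder strains by 1.76 (exact permutation p = 0.108, adjusted 0.256). With tumors of at least 5 such cells the class difference after aPD1 was −0.73 (exact permutation p = 0.373) and the non-responder change 0.83 (exact permutation p = 0.383). The interaction over 6 and 5 pairs was −0.56 (exact permutation p = 0.736, adjusted 0.767), and the isotype class difference was −1.01 (exact permutation p = 0.535, adjusted 0.743). Cluster 24 held 1 to 140 cells in a tumor of a classed strain, so single UMIs carry much weight in the smallest. Median Cd44 in cluster 24 was 322 CPM in responder and 259 CPM in non-responder isotype tumors and 344 and 256 CPM after aPD1, with overlapping ranges and no test. It was higher on average in the responder strain in 7 of the 8 pools with a strain of each class, but both tumors of each strain could be used in pools 3 and 9 only. CC002 F1 had 298 and 345 CPM and CC080 F1 181 and 197 CPM in pool 3, and CC075 F1 had 519 and 713 CPM and CC036 F1 408 and 463 CPM in pool 9.

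**Figure D5:**
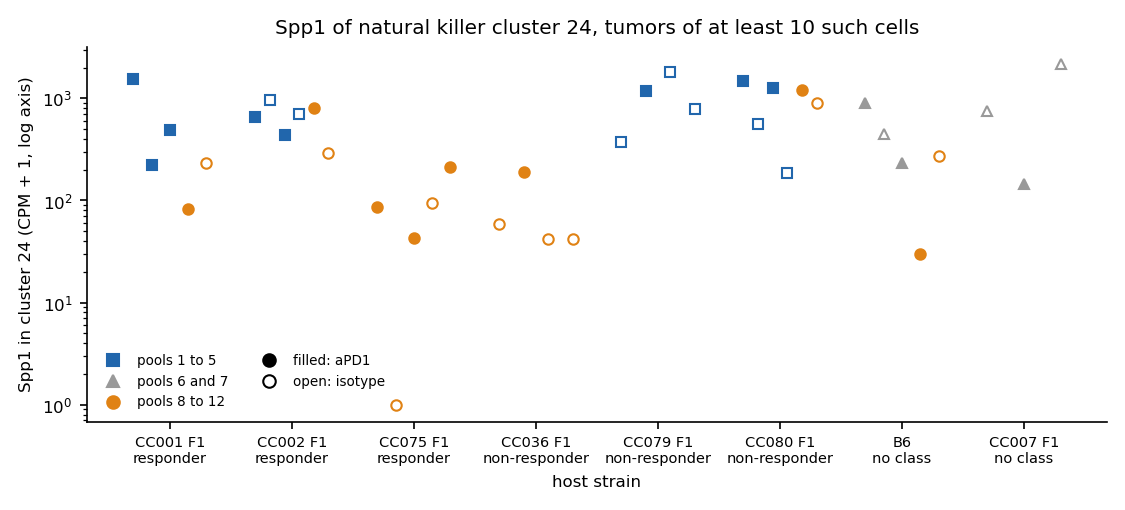
Spp1 in natural killer cluster 24, as CPM + 1 on a log axis, for each tumor with at least 10 such cells, by host strain; squares, triangles and circles give the pools, open symbols isotype and filled symbols aPD1. CC075 F1 and CC036 F1 lie at 210 CPM or below, and the CC080 F1 tumors of pool 11 lie at 898 and 1197 CPM.

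Other receptors of osteopontin were spread over the cell types. The integrin subunit genes Itgb1 (215 CPM in macrophages, 287 in T/NK cells), Itgav (107 and 275) and Itga4 (115 and 177) were in both, Itgb5 (150 and 7.02) and Itga5 (81.6 and 7.11) mainly in macrophages, and Itgb3 (0.664 and 41.6) mainly in T/NK cells. Of 9 receptor genes other than Cd44, 7 were tested in macrophages and 1, Itga8, was called between classes after aPD1, higher in responder strains by 0.93 ± 0.28 (adjusted p = 0.0379), beside 6.44% of all genes called in that contrast, with a median log2 difference over the 7 of −0.20 against 0.00 over all genes. Itga8 had only 11.7 CPM in macrophages and lost the call in 10 of its alternatives.

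Among other ligands and partners of CD44, 2 of 7 were called between classes after aPD1, where 6.44% of all genes were. Fn1, the fibronectin gene, had a log2 difference of −1.17 ± 0.21, lower in responder strains (adjusted p = 0.00074), and Cd74, the invariant chain that pairs with CD44 as a receptor of the cytokine Mif, was higher by 0.83 ± 0.19 (adjusted p = 0.00608). Srgn, the gene of the proteoglycan serglycin, had a difference of −0.04 ± 0.19 (adjusted p = 0.944) and reached 10321 CPM in granulocytic cluster 16. The list median was −0.04. Within pools 8 to 12 alone both lost their calls at nearly equal size, Fn1 with −1.18 (adjusted p = 0.0729) and Cd74 with 0.83 (adjusted p = 0.125). The p-values of Fn1 and Cd74, like those of Itga8, Ndrg1 and Cxcl9, are over tumors, not strains. They are too small for class where strains differ. With counts summed per strain and treatment, the 765 genes called in this contrast fell to 17.

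The remaining lists gave 1 call, in the contrast with 6.44% of all genes called. Of 13 genes reported with Spp1-high macrophages 12 were tested, and Ndrg1, a stress- and hypoxia-induced gene, was higher in responder strains after aPD1 by 1.55 ± 0.36 (adjusted p = 0.00694), a direction opposite to that of Spp1, with a list median of 0.35. Without CC075 F1 Ndrg1 lost its call (1.06, adjusted p = 0.104). Vegfa, the vascular growth factor gene, had 0.90 ± 0.36 (adjusted p = 0.127) and Arg1 −0.14 ± 0.35 (adjusted p = 0.877). Of these genes 11 of the 12 in the table had their highest level in cluster 27, as Spp1 did, with Arg1 at 2288 CPM, Mmp12 at 1271 and Hmox1 at 1229, and Fabp5 had its highest level in migratory dendritic cells. The list was chosen with earlier results known, and Arg1, Mmp12, Hmox1, Gpnmb and Bnip3 were among the leading genes of cluster 27. The count is therefore no independent result, and the share of all genes highest there was not counted. None of 4 tested genes of osteopontin processing, 6 of hyaluronan synthesis, breakdown and binding and 6 of CD44 shedding and cytoskeletal linkage was called in that contrast, with list medians of −0.21, −0.41 and −0.14. No listed gene was called in any other class or treatment contrast of macrophages or T/NK cells. Between strains 5 of 7 receptors, 4 of 4 processing genes, 6 of 6 hyaluronan genes, 3 of 7 ligands, 5 of 6 linkage genes and 6 of 12 genes reported with Spp1-high macrophages were called in macrophages, beside the background of 51.7%.

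Some listed genes marked single clusters. Acp5, a phosphatase that acts on osteopontin, had 2332 CPM in cluster 15, which also led with the osteoclast genes Ctsk and Atp6v0d2 and had a median Spp1 level of 485 CPM over 8 tumors. Tgm2, the transglutaminase that cross-links osteopontin, was highest in cluster 4 (665 CPM), where Cd44 was high. The hyaluronan receptor gene Lyve1 was highest in cluster 9 (224 CPM). The other members of the osteopontin gene family with a row in the table, Dmp1 and Mepe, had 0.0724 and 0.00724 CPM over all cells.

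Across the 27 clusters the genes most like Spp1 were Tmem37 (Pearson r = 0.82 of log2(CPM + 1)), Pgd (0.81), Syngr1 (0.81), Etv5 (0.81) and Tmem171 (0.81), and those most like Cd44 were Atg7 (0.87), Mapkapk2 (0.86), Gpat3 (0.83), Lrrc8d (0.83) and Rnf149 (0.83), out of 7375 genes. Across macrophages of the 48 tumors they were Anxa1 (0.78), Snx1 (0.76), Ccl2 (0.76), Ppp1r14b (0.74) and Naa20 (0.74) for Spp1, and Runx1 (0.95), Sik3 (0.94), Fosl2 (0.93), Spag9 (0.92) and Trib1 (0.92) for Cd44, out of 3076 genes. Spp1 and Cd44 had r = 0.30 over clusters and −0.34 over tumors. Spp1 and Cxcl9 had r = 0.50 over clusters and −0.60 over tumors, so clusters high in Spp1 tended to be higher in Cxcl9 while tumors high in Spp1 tended to be lower. Clusters and tumors share pools and depth, and these values describe them only.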

How the data were processed

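Tumor cells were profiled by droplet 5′ single-cell RNA sequencing. The authors deposited UMI counts per gene and cell with a cluster number from 1 to 27 and a strain, treatment and pool for each cell, made with Cell Ranger on GRCm38 (mm10) and Seurat 5.0.1 per the submitters' processing notes. No doublet caller was run here. Clusters were named where at least 3 markers, and at least 50% of a list, reached 100 CPM. Raw counts were summed per tumor over macrophage or T/NK clusters and tested with edgeR 4.0.16 (TMM, filterByExpr, quasi-likelihood F test, limma 3.58.1, R 4.3.3), with Benjamini-Hochberg adjustment over all genes and a threshold of 0.05. All tests were two-sided. DESeq2 1.42.0 was an alternative. Cluster and cluster 24 levels needed 10 cells per tumor. Shares were taken after thinning each cell to 1000 UMIs, and shares, levels at fixed makeup and cluster 24 levels were compared by permutation of tumors, exact or with 100000 resamples (Python 3.11.15, numpy 2.4.6, pandas 2.3.3, scipy 1.17.1, matplotlib 3.10.9). Intervals cover counting error only. Strain classes are those of the study and stand in no label.

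Isotype and aPD1 tumors of a strain share a pool, and their deviations from group means correlated in macrophages (19 pairs, r from −0.044 to 0.708, median 0.413) and T/NK cells (0.083 to 0.538, median 0.286), so a pool block is given where it changes a call. On simulated counts with 200 genes changed 2-fold, 86.5% were recovered in the macrophage fit of 11873 genes and 81% in the T/NK fit of 7219 genes. The simulated tumors had no strain or pool effects, so these shares do not describe class contrasts in data where strains and pools differ. Named genes were Spp1, Cd44, listed genes that passed a class or treatment test with up to 4 others per list, and the 5 genes of highest r. Cxcl9 was set beside Spp1. The members and lists were chosen with earlier results of these data known.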

Additional observations from a re-analysis of the deposited data

Results flagged for a closer look

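In 9 of 32 groups tested, the highest or lowest tumor stood farther from the rest than Dixon's 95% limit. The limit was applied to CPM or percent, not to log2 levels. Its rate of about 1 in 20 holds for independent normal values, while these groups mix strains and reuse tumors. No excess of outlying tumors is therefore read from the count. For Spp1 in cluster 24 the flagged tumors were the CC036 F1 aPD1 tumor of pool 9 at 187 CPM (63 cells, next 1182 CPM), the CC079 F1 isotype tumor of pool 2 at 1825 CPM (34 cells, next 898 CPM) and the CC001 F1 aPD1 tumor of pool 1 at 1555 CPM (15 cells, next 807 CPM). For Cd44 the CC036 F1 isotype tumor of pool 8 stood apart in macrophages at 1802 CPM (323 macrophages, next 1070 CPM), in T/NK cells at 558 CPM (next 379 CPM) and in the share of T/NK cells with a Cd44 UMI at 42.2% (next 27.1%). The CC075 F1 tumors of pool 9 were highest of their groups for Cd44 in T/NK cells, at 495 CPM after aPD1 (next 342 CPM) and 482 CPM under isotype (next 373 CPM). The CC079 F1 aPD1 tumor of pool 2 had the lowest share of T/NK cells with a Cd44 UMI, 16.1% over 68 cells.

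The change of macrophage Spp1 with aPD1 went up in every pair of CC079 F1 and CC080 F1 and down in every pair of CC075 F1. The mean log2 change of CC079 F1 exceeded that of CC075 F1 by 1.57 and that of CC080 F1 exceeded it by 1.59, and these differences were not tested. Each of these strains had 3 pairs, and tumors in the pool 3 and pool 4 pairs of CC080 F1 share an animal identifier.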

How the results depend on the processing

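Over the tests of Spp1 and Cd44, 347 values under an alternative kept direction and side of the threshold, 13 reversed, 6 passed a threshold newly and 2 lost it. The Spp1 class difference after aPD1 in macrophages passed with DESeq2 (−1.02, adjusted p = 0.0282), scaling by library size alone (−1.08, 0.0374), the pool as a replicate block (−1.13, 0.0185), without tumors under 500 cells (−1.01, 0.0483) and without CC001 F1 (−1.57, 0.00378). At fixed makeup its isotype counterpart turned to 0.0152 without tumors under 500 cells, and the share of macrophages with a Spp1 UMI turned to 0.0849 points. The isotype class difference of macrophage Spp1, near 0, turned to 0.0457 without those tumors, 0.0430 in pools 1 to 5, and 0.12, 0.11 and 0.19 without CC002 F1, CC075 F1 and CC079 F1. Cd44 after aPD1 turned to 0.11 in macrophages without CC036 F1, and in T/NK cells under isotype to −0.0331 in pools 8 to 12. T/NK Spp1 passed under isotype without CC036 F1 (−1.66, adjusted p = 0.025) and its change with aPD1 in non-responder strains turned to −0.24 without cluster 12. In cluster 24, tumors with at least 20 cells gave 0.49 for the isotype class difference and −0.45 for aPD1 in responder strains, and at least 5 cells gave 0.39 for the interaction, which had no value at 20. The pool block, added for strains after seeing the data, ended the strain calls of macrophage Cd44 (0.42, adjusted p = 0.593) and T/NK Spp1 (2.38, 0.255), and beside the macrophage Spp1 class difference above it changed no other call of Spp1 or Cd44. The cause was not tested for any of these. The 765 genes called between classes after aPD1 in macrophages ranged from 17 (summed per strain) to 1398 (pool block), with 148 in pools 1 to 5 and 70 in pools 8 to 12, and the 6464 called between strains fell to 1623 with the block. Few natural killer cells per tumor limit the values of cluster 24.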
